A study of Saccharomyces cerevisiae with 7 samples.

Results

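The 10 genes described here encode enzymes and regulators of sphingolipid synthesis in Saccharomyces cerevisiae: LCB1, LCB2, LCB3, LCB4, YPC1, YDC1, LAG1, LAC1, ORM1 and ORM2. They were chosen by symbol from a table of 5732 genes, and all 10 were found and passed the filter on low values described below. Nascent RNA, the RNA still attached to RNA polymerase II, was measured in strain DPY1283, in which Hsf1 carries an anchor-away tag (Hsf1-AA) and Rpb3, a polymerase subunit, carries a FLAG tag. In an anchor-away strain rapamycin binds the tagged factor to a partner that holds it away from the DNA. The 4 conditions were 39 °C with 1 µM rapamycin, 39 °C without rapamycin, 30 °C with 1 µM rapamycin and 30 °C without rapamycin, and all share both tags. The labels do not say how long the heat and the drug lasted, or whether the strain's TOR kinases respond to rapamycin. Removal of Hsf1 therefore cannot be told apart from other actions of the drug. The series also holds 3 Hsf1 chromatin immunoprecipitation samples, which were not analysed here.

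Sphingolipids are membrane lipids built on a long chain base. Serine palmitoyltransferase joins serine to a fatty acid in the endoplasmic reticulum, ceramide synthase links the resulting base to a very long fatty acid, ceramidases undo that step, and a kinase and a phosphatase add and remove a phosphate on the free base. Orm proteins hold serine palmitoyltransferase back, and kinases downstream of TOR complex 2 release that brake. Long chain bases and ceramides are known to accumulate in heat-stressed yeast.

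Each value is the authors' mean of normalized reads for a gene in a condition, with 1 column per condition, so no difference has a replicate check and none was tested. The column totals ran from 369160.1 to 433510.0 normalized reads, and the spacing of low values gave estimated depths of 205000 to 794000 reads for the libraries behind them. Errors below are counting standard errors (SE) from that spacing. They ran from 4.59% to 22.0% of a value over the 40 member values, and leave out any variation between cultures. HSF1 itself had 99.98 normalized reads at 39 °C with rapamycin, 113 at 39 °C without it, 60.3 at 30 °C with it and 78.7 at 30 °C without it. The anchor-away method moves the Hsf1 protein, so these values do not check its removal.

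At 39 °C without rapamycin, the ceramidase genes YPC1 and YDC1 were the members at least 2-fold higher than at 30 °C, and the ceramide synthase gene LAC1 was the member at least 2-fold lower. The same 3 genes were past 2-fold in the same direction when heat was given with rapamycin. No member was past 2-fold with rapamycin at either temperature. Ratios are log2 of (value + 2.851), where the pseudocount is 0.1 of the table's median and understates the change of low genes. Over the 4585 genes past the filter, a mean of at least 14.442 normalized reads, 16.1% were higher by this rule and 17.9% lower with heat alone. Members thus had 2 of 10 higher and 1 of 10 lower, shares near this background, and their median log2 ratio was -0.37, against 0.01 over all filtered genes. With heat and rapamycin together the background was 12.3% higher and 12.8% lower. With rapamycin it was 5.37% and 2.88% at 39 °C and 0.0436% and 0.371% at 30 °C. A count of 0 of 10 members is near these rapamycin shares.

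**Figure D1:**
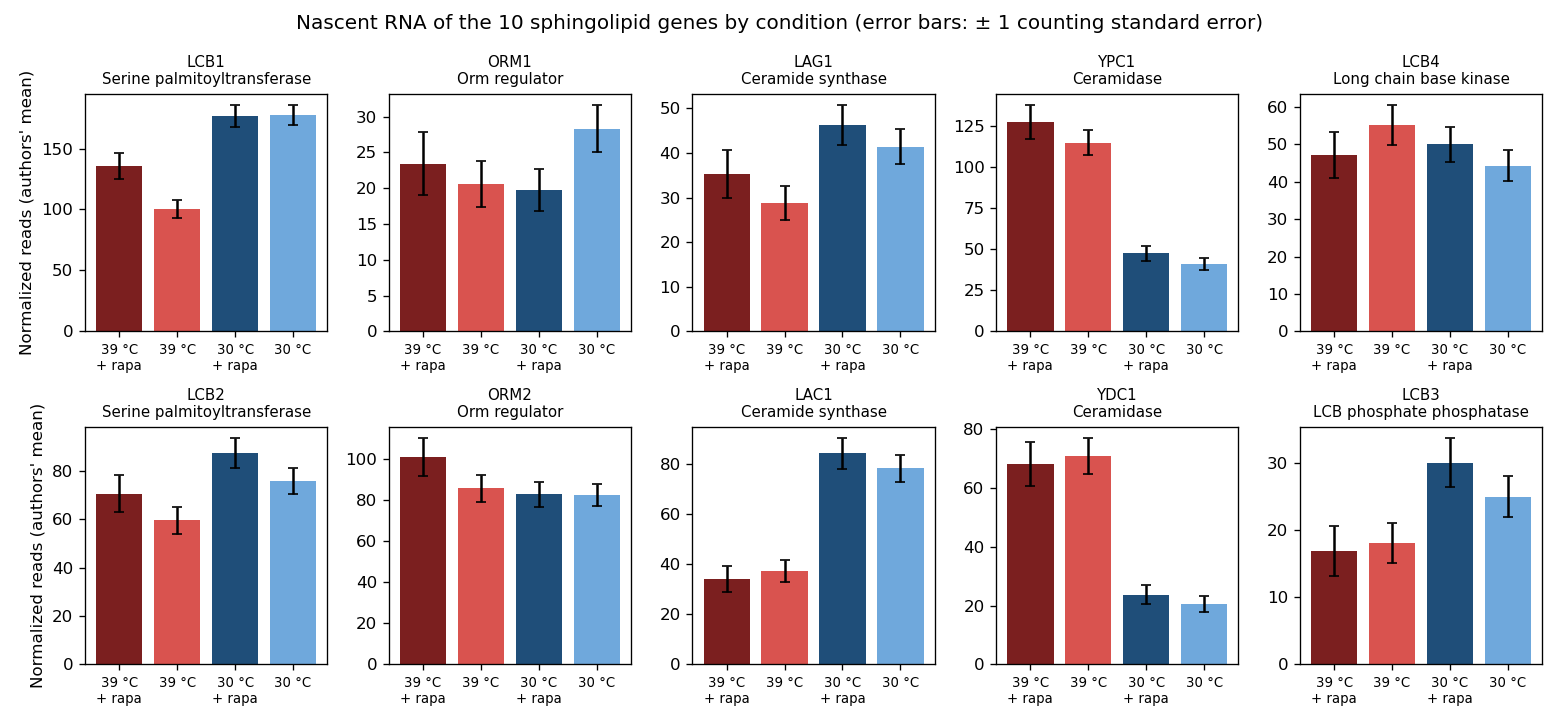
Normalized reads (authors' mean per condition, vertical axis) of the 10 genes in the 4 conditions, with bars of ± 1 counting standard error. YPC1 and YDC1 stand higher in both 39 °C bars, LAC1 stands higher in both 30 °C bars, and each pair of bars at the same temperature is close for these 3 genes.

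YPC1 and YDC1 encode the alkaline ceramidases, which release the long chain base from ceramide. YPC1 (YBR183W, chromosome II, 596115 to 597065 in the S288C R64 assembly) had 127 normalized reads at 39 °C with rapamycin, 115 at 39 °C without it, 47.5 at 30 °C with it and 41.0 at 30 °C without it. YDC1 (YPL087W, chromosome XVI, 383455 to 384408) had 68.0, 70.8, 23.6 and 20.6 normalized reads in the same order of conditions. Both genes were high in the 39 °C columns and low in the 30 °C columns. The columns of LAC1, LAG1, LCB1, LCB2, LCB3 and ORM2 also did not overlap between temperatures, so this was not particular to the ceramidase genes. The share of all genes with such a split was not counted. The log2 heat ratio of YPC1 was 1.37 with rapamycin (SE 0.17) and 1.42 without it (SE 0.16). For YDC1 it was 1.42 with rapamycin (SE 0.23) and 1.65 without it (SE 0.21). Without rapamycin these were fold differences of 2.68 for YPC1 and 3.15 for YDC1, above 90.1% and 92.6% of filtered genes. The heat ratio with rapamycin minus that without it was -0.05 for YPC1 (SE 0.23) and -0.23 for YDC1 (SE 0.31), both within counting error.

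LAG1 and LAC1 encode the alternative catalytic subunits of ceramide synthase. LAC1 (YKL008C, chromosome XI, 427295 to 428551) had 34.0 normalized reads at 39 °C with rapamycin, 37.2 at 39 °C without it, 84.3 at 30 °C with it and 78.4 at 30 °C without it. LAG1 (YHL003C, chromosome VIII, 100648 to 101883) had 35.3, 28.9, 46.2 and 41.4 in that order. LAC1 fell into a high pair of 30 °C columns and a low pair of 39 °C columns, while the columns of LAG1 lay closer together. The log2 heat ratio of LAC1 was -1.24 with rapamycin (SE 0.23) and -1.02 without it (SE 0.18), and that of LAG1 was -0.36 (SE 0.24) and -0.48 (SE 0.22). LAC1 without rapamycin lies at the edge of the 2-fold rule, and with a pseudocount of 0.5 of the median its ratio was -0.85.

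Set per length of the annotated gene, LAG1 stood at 1.06 times LAC1 at 39 °C with rapamycin (95% counting interval 0.69 to 1.62) and at 0.79 times at 39 °C without it (0.56 to 1.12). At 30 °C the ratio was 0.56 with rapamycin (0.44 to 0.71) and 0.54 without it (0.43 to 0.68). LAC1 was thus the more read gene of the pair at 30 °C, and at 39 °C the pair did not differ beyond counting error. The ratio of YPC1 to YDC1 stayed between 1.62 and 2.02 in the 4 conditions, and these intervals overlap. Summed per kb, the ceramidase genes stood at 3.68 times the ceramide synthase genes at 39 °C with rapamycin (2.88 to 4.72) and at 3.68 times at 39 °C without it (3.01 to 4.49). At 30 °C the ratio was 0.71 with rapamycin (0.59 to 0.86) and 0.67 without it (0.56 to 0.81). This ratio of sums was chosen after the values were seen.

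**Figure D2:**
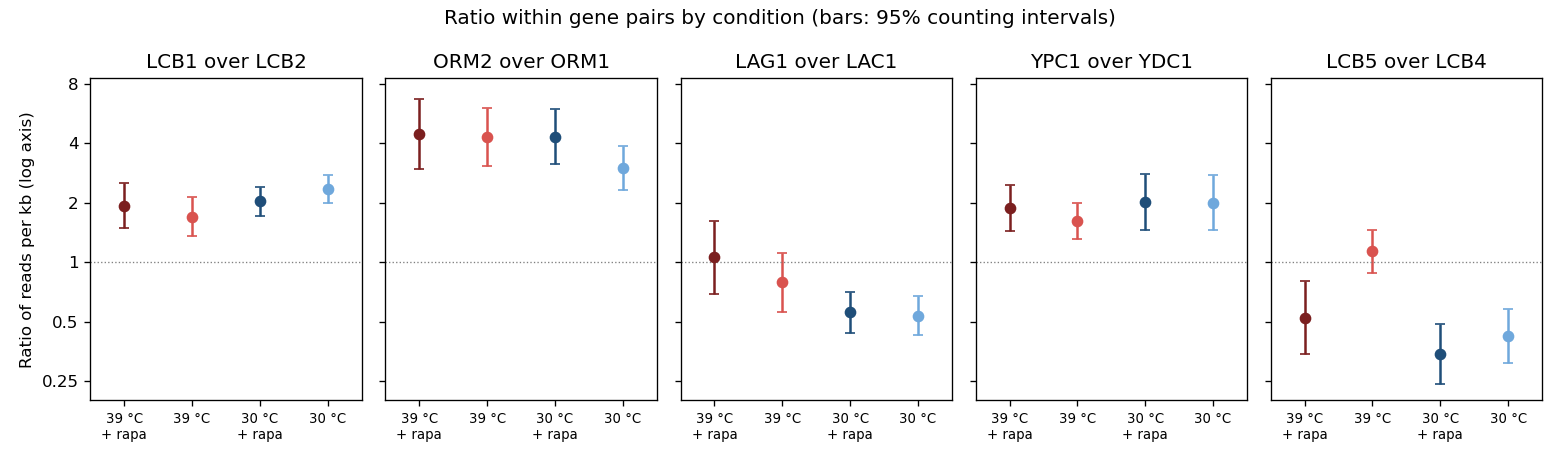
Ratio of normalized reads per kb within 5 gene pairs in the 4 conditions, on a log axis, with 95% counting intervals. LAG1 over LAC1 is at 1.06 and 0.79 at 39 °C, with and without rapamycin, against 0.56 and 0.54 at 30 °C. The point of LCB5 over LCB4 is above 1 only at 39 °C without rapamycin. It is at 1.13 there, and its interval of 0.88 to 1.46 includes 1.

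LCB1 and LCB2 encode the partners of the catalytic core of serine palmitoyltransferase, the first enzyme of the pathway. LCB1 (YMR296C, chromosome XIII, 859215 to 860891) had 136 normalized reads at 39 °C with rapamycin, 101 at 39 °C without it, 177 at 30 °C with it and 177 at 30 °C without it. LCB2 (YDR062W, chromosome IV, 576474 to 578159) had 70.6, 59.5, 87.3 and 75.7 in that order. Both genes had their lowest value at 39 °C without rapamycin and lower values at 39 °C than at 30 °C. For LCB1 the log2 heat ratio was -0.38 with rapamycin (SE 0.13) and -0.80 without it (SE 0.12), a 1.74-fold lower value without the drug. LCB2 had -0.30 (SE 0.18) and -0.33 (SE 0.16). Of all members LCB1 had the highest rapamycin ratio at 39 °C, 0.42 (SE 0.15), against -0.01 at 30 °C (SE 0.10), and the difference of 0.43 had an SE of 0.18. LCB1 read 1.70 to 2.35 times as high as LCB2 per length.

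ORM1 and ORM2 encode the inhibitors of serine palmitoyltransferase. ORM2 (YLR350W, chromosome XII, 828730 to 829380) had 101 normalized reads at 39 °C with rapamycin, 86.0 at 39 °C without it, 82.9 at 30 °C with it and 82.6 at 30 °C without it. ORM1 (YGR038W, chromosome VII, 560682 to 561350) had 23.4, 20.6, 19.8 and 28.3 in that order. ORM2 was nearly level across the columns, and ORM1 was highest in untreated cells. The log2 heat ratio of ORM2 was 0.28 with rapamycin (SE 0.16) and 0.06 without it (SE 0.14), and ORM1 had 0.22 (SE 0.30) and -0.41 (SE 0.25). ORM1 also had the lowest rapamycin ratio of the members at 30 °C, -0.46 (SE 0.24), a ratio above that of 3.25% of filtered genes. That value rests on few reads and is within 1.96 SE of 0. Per length ORM2 was the higher gene in every condition, by 4.44 times at 39 °C with rapamycin, 4.29 at 39 °C without it, 4.31 at 30 °C with it and 3.00 at 30 °C without it.

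LCB4 encodes the main kinase of long chain bases and LCB3 a phosphatase of their phosphates. LCB4 (YOR171C, chromosome XV, 652010 to 653884) had 47.1 normalized reads at 39 °C with rapamycin, 55.1 at 39 °C without it, 49.9 at 30 °C with it and 44.3 at 30 °C without it. LCB3 (YJL134W, chromosome X, 158188 to 159417) had 16.9, 18.05, 30.0 and 24.9 in that order. LCB4 showed no split by temperature, and LCB3 was lower in both 39 °C columns. The log2 heat ratio of LCB3 was -0.73 with rapamycin (SE 0.31) and -0.41 without it (SE 0.26), and that of LCB4 was -0.08 (SE 0.22) and 0.30 (SE 0.18).

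**Figure D3:**
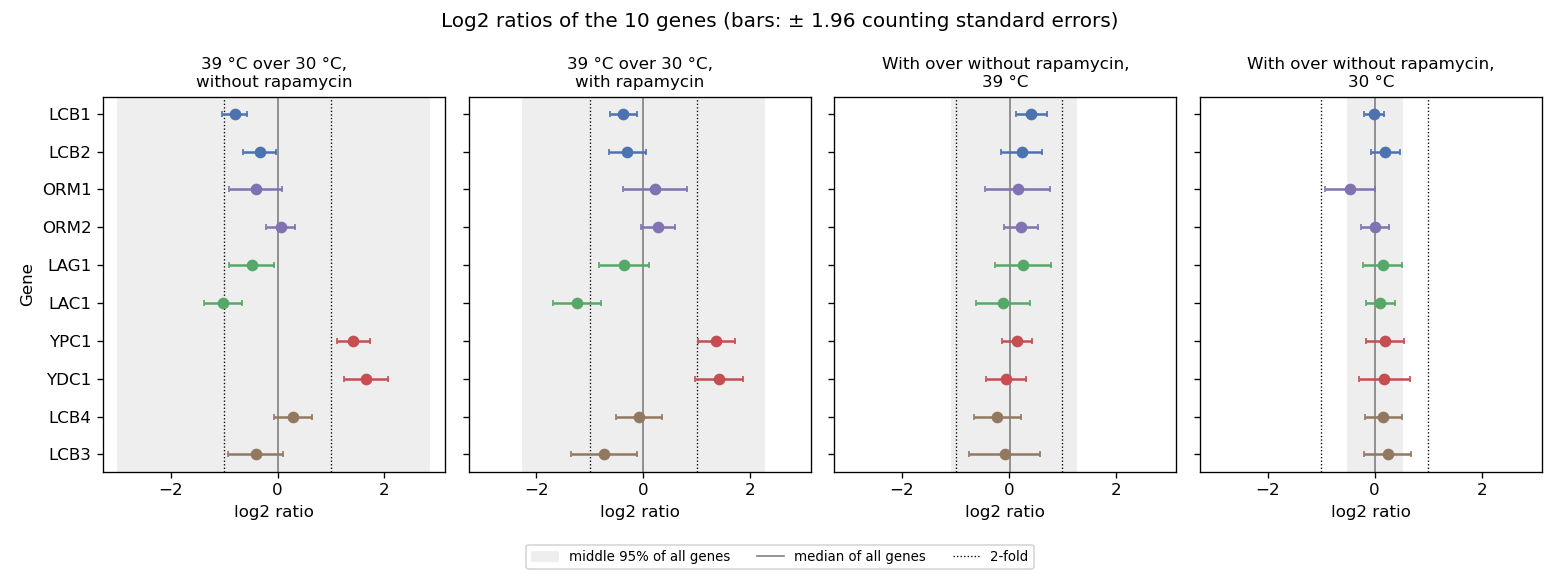
Log2 ratios of the 10 genes (points, with bars of ± 1.96 counting standard errors) in the 4 comparisons, with the median and the middle 95% of the 4585 filtered genes behind them and dotted lines at 2-fold. YPC1, YDC1 and LAC1 lie past 2-fold in both heat panels, and no gene does in the rapamycin panels.

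Within each condition the levels per kb put ORM2 first and LCB3 last. At 39 °C with rapamycin ORM2 had 155 normalized reads per kb, YPC1 134, LCB1 80.8 and YDC1 71.3, and the remaining members had 13.8 to 41.9. At 39 °C without it ORM2 had 132, YPC1 120.4, YDC1 74.3 and LCB1 59.9. ORM2 and YPC1 did not differ beyond 1.96 SE in either 39 °C column, and neither did LCB1 and YDC1. At 30 °C with rapamycin the order was ORM2 at 127, LCB1 at 105, LAC1 at 67.1 and LCB2 at 51.8, and without it ORM2 at 127, LCB1 at 106, LAC1 at 62.4 and LCB2 at 44.9. The first 3 of these were each apart from the next beyond 1.96 SE. YDC1 was ninth at 30 °C with and without the drug, at 24.8 and 21.6, not apart from LCB4 or LCB3.

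With rapamycin during heat, 5.37% of filtered genes passed 2-fold upward and 2.88% downward, and no member was in either class. Member ratios ran from -0.22 for LCB4 (SE 0.22) to 0.42 for LCB1, with a median of 0.16 against 0.02 over filtered genes. With rapamycin at 30 °C the background was 0.0436% higher and 0.371% lower, again with no member, and ratios ran from -0.46 for ORM1 to 0.24 for LCB3 (SE 0.22). A count of 0 of 10 is near that background. Heat given with rapamycin put 12.3% of filtered genes at least 2-fold higher and 12.8% lower, beside 2 and 1 of the 10 members, with a member median of -0.19 against a median of 0.00 over all filtered genes. The rapamycin ratio at 39 °C minus that at 30 °C was past 1 for no member, beside backgrounds of 6.91% above 1 and 3.75% below -1. The comparisons share columns, so their ratios are not independent of each other.

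The genes whose 4 values were most like those of YDC1, the member with the highest heat ratio, were PHM8, AMS1 and GLO1, with distances of 0.06, 0.10 and 0.12 on centred log2 values over 4 columns. YPC1 was the nearest other member, at 0.20, and ranked 28 among filtered genes. For LAC1, the member with the lowest heat ratio, the nearest were KCS1, TIM23 and GRC3 at 0.05, 0.06 and 0.07, and LCB3 was the nearest member at 0.57, ranking 513. With 4 columns many genes lie close together by this measure.

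Of 40 further genes of the pathway, in 5 lists, all had a row and 38 passed the filter. With heat alone 11 passed 2-fold upward and 6 downward, beside 16.1% and 17.9% of all filtered genes. With heat and rapamycin together 5 were higher and 4 lower, beside 12.3% and 12.8%, and 1 of these 4, YSR3, did not pass the filter that the background uses. The lower counts, and the higher count with heat and rapamycin together, are near the background. With heat alone the lower genes were in the de novo synthesis, elongation and complex sphingolipid lists, and the higher ones in the turnover and export and the control lists. In the de novo synthesis list 1 of 5 was lower and none was higher with heat alone, with a median of -0.79 against 0.01 over all filtered genes. That gene was SUR2, the long chain base hydroxylase, at -1.27 with rapamycin (SE 0.23) and -1.15 without it (SE 0.19). The fatty acid elongation list had 3 of 6 lower with heat alone, beside 17.9% of filtered genes, and a median of -0.83. None of the 6 was 2-fold higher, but 2 had heat ratios above 0 without rapamycin. These were TSC13 at 0.68 (SE 0.16) and ELO1 at 0.44 (SE 0.17). The elongase gene ELO2 had 19.96 normalized reads at 39 °C with rapamycin, 14.0 at 39 °C without it, 68.5 at 30 °C with it and 63.7 at 30 °C without it. Its log2 heat ratio was -1.64 with rapamycin (SE 0.28) and -1.98 without it (SE 0.25).

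The elongase gene ELO3 had 49.6, 22.1, 91.8 and 96.8 normalized reads in the same order. Its heat ratio was -0.85 with rapamycin (SE 0.20) and -1.997 without it (SE 0.21), and its rapamycin ratio at 39 °C was 1.07 (SE 0.26). PHS1, the dehydratase of the elongation cycle, had -0.81 (SE 0.31) and -1.07 (SE 0.28). In the complex sphingolipid list 2 of 7 were lower with heat alone, with a median of -0.40, a count near the 17.9% of filtered genes. None was 2-fold higher, but 3 of 7 had heat ratios above 0 without rapamycin. These were CSH1 at 0.39 (SE 0.26), CSG2 at 0.37 (SE 0.14) and SUR1 at 0.06 (SE 0.15). AUR1, which encodes inositol phosphorylceramide synthase, had -1.32 with rapamycin (SE 0.27) and -1.43 without it (SE 0.21). KEI1, the gene of its regulatory partner, had -0.44 (SE 0.34) and -1.60 (SE 0.31).

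In the turnover and export list 3 of 5 were higher with heat alone, beside 16.1% of filtered genes, with a median of 1.06. HFD1, the fatty aldehyde dehydrogenase gene of base phosphate breakdown, had a heat ratio of 1.56 with rapamycin (SE 0.20) and 2.13 without it (SE 0.19). RSB1, a gene for long chain base export, had 0.43 (SE 0.30) and 1.06 (SE 0.25). YSR3, a paralog of LCB3 that lies under the filter, was at -1.46 (SE 0.42) with rapamycin and -0.51 (SE 0.31) without it. LCB5, the paralog of the kinase gene LCB4, had 27.1 normalized reads at 39 °C with rapamycin, 68.8 at 39 °C without it, 18.8 at 30 °C with it and 20.7 at 30 °C without it. Only the 39 °C column without rapamycin was high for LCB5. Its rapamycin ratio was -1.26 at 39 °C (SE 0.26) and -0.12 at 30 °C (SE 0.26), where LCB4 had -0.22 and 0.16.

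The control list holds kinases, TOR complex 2 parts and other genes, such as SLM1 and SAC1, linked to the Orm proteins or membrane lipids. Of its 17 genes 16 passed the filter, and BIT61 did not. With heat alone 8 of 17 were higher and none was lower, beside 16.1% and 17.9% of filtered genes, and the median was 0.78. With heat and rapamycin together 4 were higher, beside 12.3%, with a median of 0.30. These lists were not tested. The kinase genes YPK1 and YPK2, whose products phosphorylate Orm proteins, had heat ratios of 0.77 and 1.17 with rapamycin and of 1.45 and 1.91 without it. YPK2 lies 443 bases from PGM2 on the same strand, and PGM2 had heat ratios of 5.87 with rapamycin and 5.30 without it. Whether reads of PGM2 were counted for YPK2 was not tested. The flippase kinase genes FPK1 and FPK2, the second listed as KIN82, had 1.13 and 2.03 with rapamycin and 1.42 and 2.31 without it. SLM1 had 1.08 and 1.63, PKH2 0.79 and 1.34 and NPR1 0.30 and 1.07, again with rapamycin first. LST8, a part of both TOR complexes, had 26.8 normalized reads at 39 °C with rapamycin, 856 at 39 °C without it, 17.9 at 30 °C with it and 46.8 at 30 °C without it. The rapamycin ratio of LST8 was -4.85 on the log2 scale at 39 °C (SE 0.23) and -1.26 at 30 °C (SE 0.23).

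**Figure D4:**
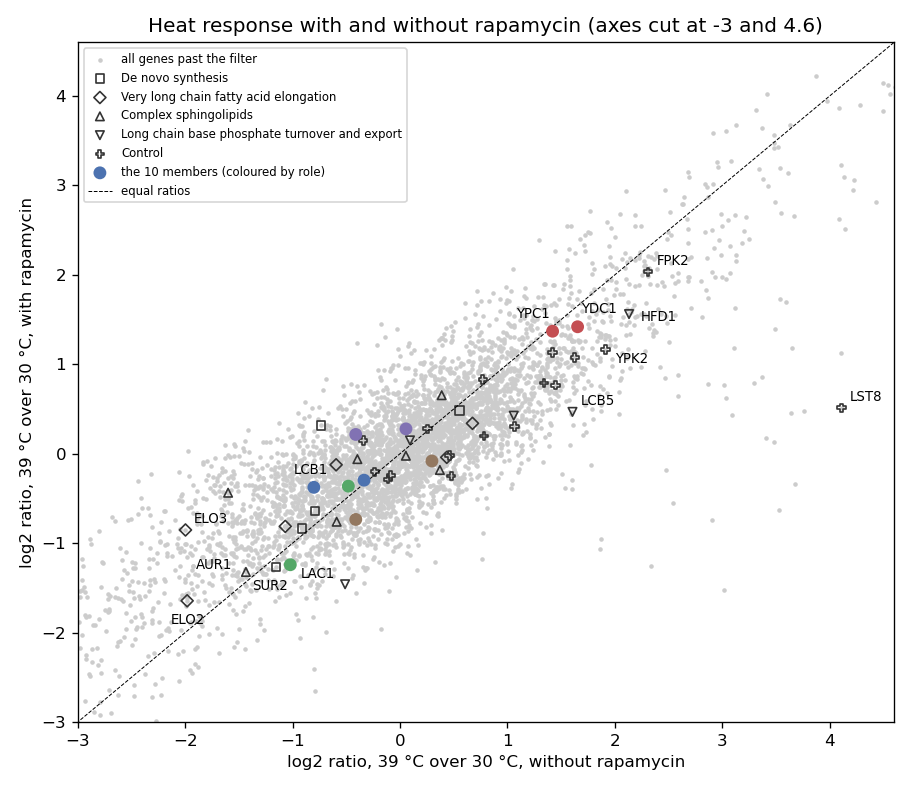
Log2 heat ratio with rapamycin (vertical axis) against that without it (horizontal axis) for filtered genes within the axis range, for the 40 pathway genes (open symbols by list) and for the 10 members (blue for serine palmitoyltransferase, purple for Orm genes, green for ceramide synthase, red for ceramidases, brown for LCB4 and LCB3). YPC1, YDC1 and LAC1 lie near the line of equal ratios, while LST8 lies far below it, at 4.11 without rapamycin and 0.51 with it.

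Among the 50 genes of the pathway 2 were at least 2-fold lower with rapamycin at 39 °C, a count near the 2.88% of all filtered genes. They were LST8 and LCB5. Each lies head to head with a chaperone gene. LST8 starts 501 bases from SIS1, a J-protein gene, which had 98.0 normalized reads at 39 °C with rapamycin, 1408 at 39 °C without it, 28.2 at 30 °C with it and 114 at 30 °C without it. LCB5 starts 841 bases from HSP60, the mitochondrial chaperonin gene, which had 194, 1210.2, 123 and 199 in that order. This pairing was singled out after the values were seen. Whether reads of the chaperone gene were counted for its neighbour was not tested, and the labels do not say whether the counting used strand.

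No member overlaps another gene of the RefSeq table. Of the 20 genes adjacent to a member, 19 had a row. With heat alone 2 of them were past 2-fold higher and 3 past 2-fold lower, beside 16.1% and 17.9% of filtered genes. With heat and rapamycin together 3 were higher and 2 lower, beside 12.3% and 12.8%. These counts are near the background. YPC1 lies between YBR182C-A and YBR184W, which had 1.96 to 9.17 normalized reads in the 4 conditions, far under YPC1 itself. YDC1 is flanked by YPL088W on the same strand, 461 bases away, with heat ratios of 0.68 with rapamycin and 0.78 without it, and by the convergent gene ELP3, 364 bases away, with -1.90 and -1.86. LAC1 is flanked by the convergent gene MRT4, 342 bases away, with -2.69 with rapamycin and -3.62 without it, and by the divergent gene CAP1, 750 bases away, with 1.26 and 0.83. For YDC1 and for LAC1, 1 flanking gene had a heat ratio of the same sign as the member and 1 of the opposite sign. Whether reads of a flanking gene were counted for a member was not tested.

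Next to LCB1 the divergent gene PRC1, 1030 bases away, had 1.12 with rapamycin and 1.01 without it, and GSR1 had 0.39 and 0.14. Next to LCB3 the convergent gene DPI8, 205 bases away, had 1.90 and 1.35, and the divergent ribosomal protein gene RPS21B had 0.33 and -0.94. Next to LCB4 the convergent gene GLN4 had -0.37 and -1.17, and YRM1 had 0.41 and 0.49. The adjacent genes of LCB2, LAG1, ORM1 and ORM2 with a row, which are YDR061W, AIM7, MRP4, HSE1, ACB1, DIC1 and NIT3, stayed within 2-fold. The table also has rows next to ORM2 (YLR349W) and LAG1 (YHL002C-A) that the RefSeq table does not list, and whether they share reads with these genes was not tested.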

How the data were processed

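The table was deposited by the authors with 1 column of average normalized read counts per condition, a signal value without division by gene length. HTSeq and build sacCer3 are named per the submitters' processing notes. The sources used here do not give, for the nascent RNA reads, the aligner, annotation, strand setting, scaling, number of replicates averaged or handling of multiply mapped reads. The split of reads within paralog pairs (LAG1 and LAC1, ORM1 and ORM2, YPC1 and YDC1, LCB4 and LCB5) is uncertain. Columns were matched to conditions by their header abbreviations.

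All values under 6 could be written, to within 0.0055, as whole multiples of 2 step sizes of the column added together, against 5.18% to 27.2% of evenly spaced values. The lowest value of a column was assumed to be 1 read of each of 2 libraries, which gave the depths and counting errors. Counting errors exclude variation between cultures, and without molecular identifiers a read need not be a separate molecule. From 70.0% to 100% of the possible sums under 6 occurred as values, fewest at 30 °C without rapamycin. In a simulation of the 4 columns over 5732 genes, with the lowest value set to 1 read of each library as assumed, the fit recovered both steps to within 0.0005 in 4 of 4 columns. Each simulated column was built from 2 libraries, with steps that left no rounding error. The simulation therefore could not check the number of libraries or the effect of rounding.

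Log2 ratios used a pseudocount of 2.851. Background counts cover 4585 genes at or above the 20th percentile of the mean. Genes were called at 2-fold. The text names all members, every list gene past 2-fold in a comparison, the 3 nearest genes by pattern of the members with the highest and the lowest heat ratio, and adjacent genes. Members and lists were chosen with earlier results of these data known. Coordinates and lengths come from RefSeq (S288C R64), and a length is the span from start to end. In 96.3% of coding genes this span is a multiple of 3, but that of KEI1, 767 bases, is not. The lengths are thus spans and need not be coding lengths. Strand was read from the systematic names. Python 3.11.15, numpy 2.4.6 and pandas 2.3.3 were used.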

Additional observations from a re-analysis of the deposited data

How the results depend on the processing

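The alternatives were pseudocounts of 0.01 and 0.5 of the median, equal column totals, median-ratio factors, no filter, a filter at the 40th percentile and a 1.5-fold rule. Of 68 member counts and medians that these settings could change, 65 stayed within 1.5 times or within counting error. The lower count with heat alone, 1, was 0 with the 0.5 pseudocount and 2 with the 1.5-fold rule, and with heat and rapamycin it was 2 under that rule. No called ratio of a member changed sign, and 190 of the 200 single ratios under the pseudocount and scaling alternatives moved by less than their counting error. Equal totals shift the median of all filtered genes by heat alone to -0.17, with rapamycin at 39 °C to 0.14 and by heat with rapamycin to -0.10. Under equal totals ORM2 turned to -0.14 with heat alone. List alternatives were added after seeing the data. With the 0.01 pseudocount and rapamycin at 39 °C, the complex sphingolipid list had 1 higher, the turnover list 2 lower and the control list 2 lower, against 0, 1 and 1. With the 0.5 pseudocount the de novo list had 0 lower and the complex list 1 lower with heat alone, the control list 0 lower with rapamycin at 30 °C, the elongation list 0 higher with rapamycin at 39 °C and the turnover list 0 lower with heat and rapamycin. Under equal totals the de novo list had 2 lower with heat alone. Over all filtered genes the counts with rapamycin at 30 °C, 2 higher and 17 lower, were 10 higher with the 0.01 pseudocount, 0 and 11 with the 0.5 pseudocount, 5 higher without the filter, 0 higher with the filter at the 40th percentile and 73 and 64 under the 1.5-fold rule. With the 0.5 pseudocount, rapamycin at 39 °C gave 91 higher and 82 lower, against 246 and 132, and heat with rapamycin 361 lower, against 588. No paired analysis was possible because each condition has 1 averaged column. Depth limits the members most in ORM1 and LCB3, whose values rest on the fewest reads.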

Other observations

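For 3 of the 40 further pathway genes the rapamycin ratio at 39 °C minus that at 30 °C was above 1, beside 6.91% of filtered genes. For 2 it was below -1, beside 3.75% of filtered genes, and both counts are near these shares. The pathway genes above 1 were TSC3, a small activator of serine palmitoyltransferase, at 1.05 (SE 0.40), the elongase gene ELO3 at 1.14 (SE 0.29) and KEI1 at 1.16 (SE 0.46). TSC3 had 27.1 normalized reads at 39 °C with rapamycin, 14.8 at 39 °C without it, 21.1 at 30 °C with it and 26.5 at 30 °C without it. It was thus lowest in the same column as LCB1 and LCB2, but this was not particular to these genes. LAG1, SUR2, ELO2, ELO3 and KEI1, among others, were also lowest there. The genes below -1 were LCB5 at -1.14 (SE 0.36) and LST8 at -3.60 (SE 0.32). These differences were not tested.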
